A study of Homo sapiens with 28 samples.

Results

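The genes described here are 8 genes of the major histocompatibility complex (MHC) class II pathway: the co-activator CIITA, the invariant chain CD74, the antigen-binding chains HLA-DRA, HLA-DRB1, HLA-DPA1 and HLA-DPB1, and the peptide-editing chains HLA-DMA and HLA-DMB. They were taken by name, with earlier results of these data known, and all 8 were found among the 60483 genes of the count table. RNA was sequenced from 2 established human lung adenocarcinoma lines, A549 (13 libraries) and H1944 (15 libraries). The cells carry MGT#1-mVenus, a reporter that drives the fluorescent protein mVenus, and mVenus reads were present in all 28 libraries. Treated cells received GSK126, an inhibitor of the histone methyltransferase EZH2, at 5 µM, or the cytokine TGF-β1 at 5 ng/ml, in both cases for 11 days, and were then sorted into a low and a high gate of mVenus fluorescence. Naive cells are labelled as unsorted controls. For A549 there were 3 naive libraries. Its GSK126 cells gave 3 low-gate and 2 high-gate libraries, and its TGF-β1 cells 2 low-gate and 3 high-gate ones. For H1944 each of these 5 groups had 3 libraries. Letters A to C number the libraries of a group. No source used here says that they came from separate cultures, so p-values measure the spread between these libraries, which may be technical. No vehicle or sorting control is named, and treatment and sorting cannot be told apart in any comparison with naive cells.

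MHC class II molecules are pairs of an alpha and a beta chain that show peptides from endosomes to CD4+ T cells. CD74 blocks the groove of a newly made pair, and HLA-DM, the pair encoded by HLA-DMA and HLA-DMB, helps to exchange the last CD74 fragment for a peptide. CIITA binds no DNA itself: it joins factors of the RFX, CREB and NF-Y families that sit on the promoters of class II, HLA-DM and CD74 genes, and it is switched on by interferon gamma in many cells that are not professional antigen-presenting cells, lung epithelium among them.

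The sequences upstream of the start are shown for the HLA-DM pair, whose levels fell, and for CD74 and HLA-DRB1, which did not follow them. RefSeq promoters on GRCh38.p14 were found for 6 of the 8 genes. CIITA and HLA-DRA were not among them. Each line gives the 250 bases before the start, 5′ to 3′ along the gene. Capitals mark the run ACTGATGATG and the box CCAAT, the letters that NF-Y is known to read, the latter on either strand (ATTGG on the other). The run was not chosen from the literature: it is the longest one that the HLA-DMB, HLA-DMA and HLA-DRB1 windows share.
HLA-DMB: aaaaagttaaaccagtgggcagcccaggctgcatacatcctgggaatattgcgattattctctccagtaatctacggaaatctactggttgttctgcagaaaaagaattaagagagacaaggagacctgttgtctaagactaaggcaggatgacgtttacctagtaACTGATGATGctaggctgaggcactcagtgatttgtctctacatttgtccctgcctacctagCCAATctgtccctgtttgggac
HLA-DMA: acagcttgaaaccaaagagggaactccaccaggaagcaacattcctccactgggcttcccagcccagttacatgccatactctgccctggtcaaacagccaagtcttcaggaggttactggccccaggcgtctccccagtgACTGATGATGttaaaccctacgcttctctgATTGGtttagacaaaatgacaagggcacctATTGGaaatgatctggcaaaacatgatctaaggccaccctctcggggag
HLA-DRB1: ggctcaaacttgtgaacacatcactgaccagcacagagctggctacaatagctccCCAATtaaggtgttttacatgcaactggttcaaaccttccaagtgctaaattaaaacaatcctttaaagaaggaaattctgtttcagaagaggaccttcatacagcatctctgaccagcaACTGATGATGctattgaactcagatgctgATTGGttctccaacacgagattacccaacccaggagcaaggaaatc
CD74: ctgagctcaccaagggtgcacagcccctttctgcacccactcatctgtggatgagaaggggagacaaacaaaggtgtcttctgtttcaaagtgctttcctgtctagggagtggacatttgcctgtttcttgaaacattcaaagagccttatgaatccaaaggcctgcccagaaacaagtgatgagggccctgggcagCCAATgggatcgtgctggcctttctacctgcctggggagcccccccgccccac
These windows span chr6:32941029-32941278 for HLA-DMB, chr6:32953098-32953347 for HLA-DMA, chr6:32589849-32590098 for HLA-DRB1 and chr5:150412911-150413160 for CD74, all on the minus strand. The run starts 84 bases before the start of HLA-DMB, 109 before that of HLA-DMA and 75 before that of HLA-DRB1. It occurs on either strand in 25 of 35116 RefSeq windows of the same length, or 0.0712%. CCAAT occurs in 32.0% of them, and both together in 0.0399%. The CD74 and HLA-DPB1 windows held CCAAT but not the run, and the 2 windows of HLA-DPA1 held neither. These matches describe letters only. The run was present both in the HLA-DM pair and in HLA-DRB1, whose levels are set out separately below.

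Total counts ran from 2013449 to 9550143 per library in A549 and from 1660148 to 13280592 in H1944. Counts are low for most of the 8 genes, and the sums over all 28 libraries were 2019 for HLA-DMB, 904 for HLA-DMA, 258 for CIITA, 220 for HLA-DPA1, 129 for CD74, 73 for HLA-DRB1, 66 for HLA-DPB1 and 60 for HLA-DRA. At this depth the level of reads from silent genes matters, and 397 olfactory receptor genes were summed as a measure of it. Their sum ran from 6.0 to 323.4 CPM (a gene's counts scaled to a common library total) in A549 and from 3.6 to 75.1 CPM in H1944. A549 libraries TGF-β1 high B (323.4 CPM) and naive A (206.1 CPM) stood highest, above 127.5 CPM in the next, and the main A549 results below are also given without these libraries. Reads carried no molecular identifiers, so the counting intervals and the floors for 0 counts cover counting error only.

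In GENCODE 29 (GRCh38), HLA-DMB spans chr6:32934629-32941070 and HLA-DMA chr6:32948613-32969094, both on the minus strand. A read-through gene, AL645941.2, covers parts of both on the same strand and held 0 counts in all 28 libraries, and how reads in shared exons were assigned is not given in the sources used here. HLA-DPA1 and HLA-DPB1 overlap each other on opposite strands, CIITA overlaps DEXI and AC133065.1 on the opposite strand and AC133065.3 on its own, and one end of HLA-DMA overlaps BRD2. The strand setting of the counting is not given either, so reads of such overlapping parts cannot be told apart. HLA-DRB1 and its near-identical copy HLA-DRB5 may share reads.

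In naive cells of both lines the HLA-DM pair was the main class II transcript, and the other 6 genes were near 0. Divided by exon length, HLA-DMB stood at 6.27 CPM per kb and HLA-DMA at 1.41 CPM per kb in naive A549 (means of 3 libraries). CD74, HLA-DRA, HLA-DRB1, HLA-DPA1, HLA-DPB1 and CIITA ranged there from 0.0896 to 0.279 CPM per kb. In naive H1944 HLA-DMA (13.4 CPM per kb) and HLA-DMB (12.8 CPM per kb) were close to each other, and the other 6 genes stood at 0 to 0.0244 CPM per kb. HLA-DRA had 0 counts of 18063959 in naive H1944, which allows up to 0.166 CPM. Epithelial origin was checked with 5 markers, which summed to 10252.6 to 10685.2 CPM in naive A549 and 4865.4 to 5487.3 CPM in naive H1944. The same markers summed to 4665.4 to 6396.9 CPM under GSK126 and 2061.1 to 3161.7 CPM under TGF-β1 in A549, and to 4878.6 to 7521.2 and 1443.3 to 1671.9 CPM in H1944. The 4 mesenchymal markers summed to 1300.9 to 1320.6 CPM in naive A549, 2419.2 to 3041.0 under GSK126 and 3365.7 to 4667.9 under TGF-β1, and in H1944 to 187.5 to 210.9, 582.9 to 1007.7 and 8533.3 to 10856.9 CPM. Their part in the results on HLA-DM was not tested. The 18 leukocyte markers, among them PTPRC, summed to 9.26 to 46.2 CPM in naive A549 and 4.16 to 7.68 CPM in naive H1944.

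**Figure D1:**
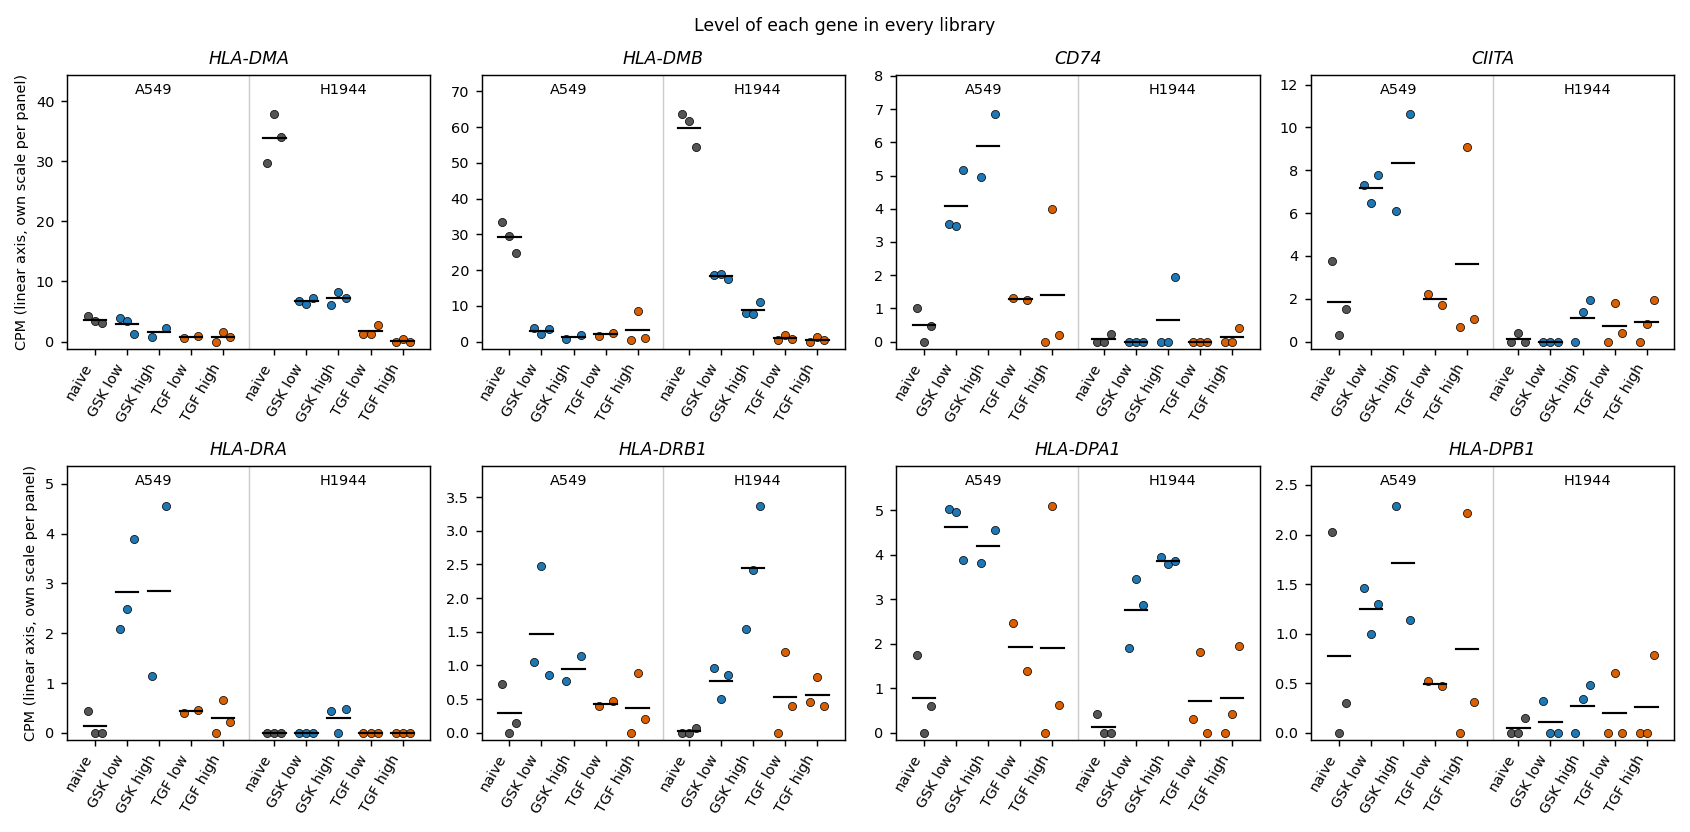
Level of each of the 8 genes in CPM (vertical, linear, a scale of its own in each panel) in the 28 libraries, 1 point per library with a bar at the group mean. Groups are naive (grey), GSK126 low and high gate (blue) and TGF-β1 low and high gate (orange), A549 on the left and H1944 on the right of each panel. HLA-DMB is highest in the naive libraries of both lines, and CIITA, CD74, HLA-DRA and HLA-DPA1 have higher levels in every A549 GSK126 library than in every naive A549 library.

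HLA-DMB, the beta chain of the peptide editor, fell in both lines under both agents. In A549 it was read at 33.5, 29.4 and 24.7 CPM in naive libraries A, B and C. Under GSK126 it was at 3.76, 1.99 and 3.45 CPM in the low gate and 0.764 and 1.71 CPM in the high gate. Every treated library lay below every naive one, with means of 29.2 ± 4.4 CPM (SD, n = 3) for naive and 2.33 ± 1.25 CPM (SD, n = 5) for GSK126, an SD that also holds the difference between the gates. The log2 fold change was -3.89 ± 0.52 (SE), with an adjusted p of 9.98e-05 in edgeR's quasi-likelihood F test. From summed counts the fall was 11.7-fold (exact 95% counting interval 8.45 to 16.7). In bulk RNA, fewer cells with the transcript and less of it per cell cannot be told apart.

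TGF-β1 gave a fall of HLA-DMB of like size in A549, against the same naive libraries. The low gate stood at 1.56 and 2.5 CPM and the high gate at 0.333, 8.65 and 0.942 CPM. The 8.65 CPM came from high B, the library with most olfactory receptor reads, and it was still below the lowest naive value. Over the TGF-β1 libraries HLA-DMB rose in the order of their olfactory receptor reads, which ran from 6.7 to 323.4 CPM. The log2 fold change was -3.72 ± 0.47 (adjusted p = 1.07e-05 by edgeR), and -4.51 (adjusted p = 5.68e-10) without naive A and high B.

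HLA-DMA, the alpha chain of the same pair, was lower in naive A549 and moved less. Naive libraries held 4.2, 3.47 and 3.05 CPM. GSK126 libraries held 0.764 to 3.97 CPM and overlapped them, with a log2 fold change of -0.78 ± 0.72 (adjusted p = 0.631 by edgeR). TGF-β1 libraries held 0 to 1.55 CPM, all below naive, and HLA-DMA fell by 2.33 ± 0.72 on the log2 scale (adjusted p = 0.0283). That call rested on 25 counts in 5 libraries. It did not hold with replicate letters as a block (adjusted p = 0.0662), in a fit of these groups alone (0.0970), within either gate, or in 6 of the 8 fits that left out 1 library, where adjusted p ran up to 0.191.

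In H1944 both chains of HLA-DM fell under both agents. HLA-DMB was at 63.5, 61.6 and 54.4 CPM in naive libraries, at 18.5, 19.0 and 17.5 CPM in the low gate and 7.91, 7.6 and 11.1 CPM in the high gate under GSK126, and at 0 to 1.81 CPM in the 6 TGF-β1 libraries. The groups did not overlap. The log2 fold change was -2.35 ± 0.15 under GSK126 (adjusted p = 1.31e-14) and -6.32 ± 0.26 under TGF-β1 (adjusted p = 6.3e-21). From summed counts these were falls of 4.12-fold (3.6 to 4.72) and 82.8-fold (44.8 to 173.0), the latter on 10 counts in TGF-β1 cells.

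HLA-DMA in H1944 followed its partner. Naive libraries held 29.8, 37.8 and 34.1 CPM, the 6 GSK126 libraries 6.15 to 8.29 CPM and the 6 TGF-β1 libraries 0 to 2.74 CPM, again with no overlap. It fell by 2.41 ± 0.18 on the log2 scale under GSK126 (adjusted p = 4.71e-13) and by 5.87 ± 0.31 under TGF-β1 (adjusted p = 5.96e-18). Only these 2 of the 8 genes had counts enough to pass edgeR's filter in H1944. The calls on HLA-DMB against naive cells in both lines, and on HLA-DMA in H1944, held in every other fit tried.

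These counts of members stand against wide changes over all genes. In A549 1 of 7 tested members passed the test under GSK126, lower, where 6.77% of all 19842 genes tested passed it, and under TGF-β1 2 of 7 did, lower, where 19.0% did. HLA-DRB1 was not tested in A549. In H1944 2 of 2 tested members passed under each agent, lower, where 40.2% of 13621 genes passed under GSK126 and 63.7% under TGF-β1. Calls were common enough in H1944 that a count of 2 of 2 says little about the members. The median log2 fold change of all genes was 0 under GSK126 and -0.01 under TGF-β1 there, and -0.16 and 0.05 in A549.

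**Figure D2:**
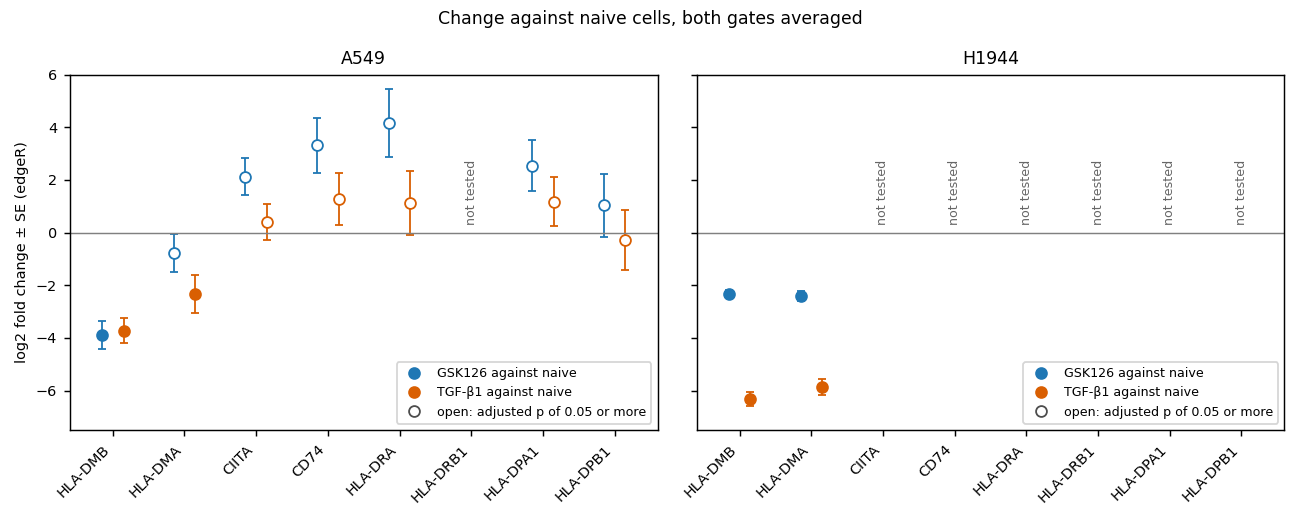
Log2 fold change against naive cells with its SE (vertical) for the 8 genes (horizontal) in A549 and H1944, GSK126 in blue and TGF-β1 in orange, filled where the adjusted p was below 0.05. Filled points are HLA-DMB under both agents in both lines and HLA-DMA under TGF-β1 in A549 and under both agents in H1944. The naive libraries are shared by both comparisons of a line.

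CD74, HLA-DRA and CIITA went the other way from HLA-DMB in A549 under GSK126, with values that did not pass the main test. They passed it once 2 background-rich libraries were set aside together, while CD74 and CIITA did not when any 1 naive or GSK126 library was left out. CD74 was at 1.01, 0 and 0.457 CPM in naive A, B and C, at 3.55, 3.48 and 5.18 CPM in the low gate and at 4.96 and 6.84 CPM in the high gate. All 5 treated libraries lay above all 3 naive ones. The log2 fold change was 3.31 ± 1.04 (adjusted p = 0.0683 by edgeR). From summed counts, 73 against 10, the level was 9.76 times as high (5.02 to 21.2).

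HLA-DRA, the alpha chain of HLA-DR, had 3 counts in naive A, 0 in naive B and C, and 3 to 16 counts in each of the 5 GSK126 libraries. Its level under GSK126 was 2.09, 2.48 and 3.89 CPM in the low gate and 1.15 and 4.56 CPM in the high gate, all above the naive maximum of 0.435 CPM. The log2 fold change was 4.16 ± 1.28 (adjusted p = 0.0607), and the ratio of summed counts 19.2 (6.13 to 96.6). CIITA stood at 3.77, 0.289 and 1.52 CPM in naive cells and at 6.11 to 10.6 CPM in the 5 GSK126 libraries, again without overlap, with a log2 fold change of 2.12 ± 0.71 (adjusted p = 0.0934) and a ratio of 4.19 (2.88 to 6.20).

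The HLA-DP chains and HLA-DRB1 were low but present. HLA-DPA1 was at 0 to 1.74 CPM in naive cells and at 3.82 to 5.02 CPM under GSK126, with no overlap and a log2 fold change of 2.54 ± 0.98 that did not pass the test (adjusted p = 0.16). HLA-DRB1 had 18 counts against 6 and did not overlap either (ratio 4.01, 1.53 to 12.3). HLA-DPB1 had 22 counts against 16 and overlapped (ratio 1.84, 0.922 to 3.74), with 14 of the 16 naive counts in naive A. Taken by overlap, 5 of the 8 genes were higher in every GSK126 library than in every naive one and 1, HLA-DMB, was lower in every one. Of all 30862 genes with at least 10 counts in these libraries, 11.4% did not overlap: 6.67% higher and 4.77% lower.

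Naive A is where the naive reads of these genes sat. It gave 67 counts summed over CIITA, CD74, HLA-DRA, HLA-DRB1, HLA-DPA1 and HLA-DPB1, while naive B gave 2 and naive C 20. Without naive A and TGF-β1 high B, CIITA (log2 fold change 2.98, adjusted p = 0.00058), CD74 (4.2, adjusted p = 0.00119) and HLA-DPA1 (3.67, adjusted p = 0.00389) rose under GSK126. HLA-DRA passed as well (adjusted p = 0.00241), with 43 counts against 0, at least 12.7-fold higher against a floor of 3 counts over the naive libraries. HLA-DMB stayed lower at -3.84 (adjusted p = 4.05e-08). The ratios of summed counts became 8.77 (4.84 to 17.4) for CIITA, 21.5 (7.08 to 107.0) for CD74, 15.3 (5.69 to 57.6) for HLA-DPA1 and 15.9 (2.51 to 663.0) for HLA-DRB1. HLA-DPB1 then had 22 counts against 2, a ratio of 9.73 (2.39 to 85.3), and no longer overlapped, so that its standing rests on naive A. In that fit 15.6% of 16977 genes passed. CIITA, CD74 and HLA-DRA also passed with no filter on low counts and in a fit of the naive and GSK126 libraries alone, while with the replicate block none of them did. TGF-β1 high B is not part of this comparison and acts on it only through the shared fit. With 1 naive or GSK126 library left out, naive A included, CIITA, CD74 and HLA-DPA1 passed in none of 8 fits. Their adjusted p by edgeR was at least 0.0586, 0.078 and 0.105. HLA-DRA did not pass in 6 of those 8. Removing naive A takes away most naive counts of the 6 genes, so the ratios of summed counts rise with its removal.

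In naive and TGF-β1 cells these genes largely followed the order of silent-gene reads, and in the GSK126 libraries they did not keep that order. Summed over the same 6 genes, naive A549 held 0.289, 3.05 and 9.71 CPM where olfactory receptor reads were 19.5, 46.3 and 206.1 CPM. TGF-β1 libraries held 0.666 to 21.9 CPM in the same order as their olfactory receptor reads of 6.7 to 323.4 CPM, except that low A (7.29 CPM of the 6 genes, 104.2 CPM) and low C (5.77 CPM, 127.5 CPM) were swapped. GSK126 high B had the fewest olfactory receptor reads of all A549 libraries, 6.0 CPM, and the highest sum of the 6 genes, 28.8 CPM. Its nearest match in background, TGF-β1 high A at 6.7 CPM, had 2 counts of CIITA and 0 of the other 5 genes. This pair is a single library of each agent. The part of silent-gene reads in these levels was not tested.

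**Figure D3:**
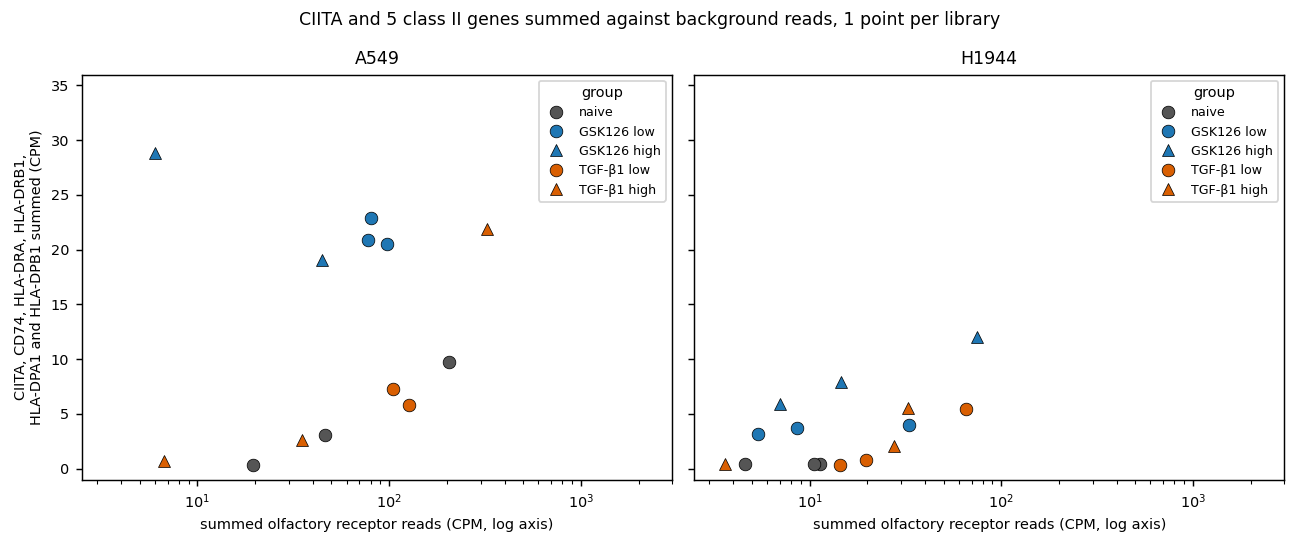
Sum of CIITA, CD74, HLA-DRA, HLA-DRB1, HLA-DPA1 and HLA-DPB1 (vertical, CPM) against the sum of 397 silent olfactory receptor genes (horizontal, CPM, log axis) in each of the 28 libraries, circles for naive cells and low gates and triangles for high gates. The 5 A549 GSK126 libraries lie at 19.1 to 28.8 CPM over the whole range of 6.0 to 97.6 CPM of background, while the naive and TGF-β1 libraries lie lower where background is low.

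Under TGF-β1 in A549 none of these 6 genes passed the test. CIITA ranged from 0.666 to 9.09 CPM, CD74 from 0 to 3.99 CPM, HLA-DRA from 0 to 0.665 CPM and HLA-DPA1 from 0 to 5.10 CPM, and every one overlapped naive cells. Log2 fold changes lay between -0.29 (HLA-DPB1) and 1.26 (CD74) with SEs of 0.68 to 1.22. The sign of CIITA (0.39) and of CD74 (1.26) turned without high B, to -0.45 and -0.13, and that of CIITA also without naive B (-0.05) and in limma-voom (-0.14). That of HLA-DPB1 turned without naive A (1.83) and in limma-voom (0.10). HLA-DRA had 8 counts against 0 without naive A and high B, at least 1.35-fold higher against the floor, and did not pass the test (adjusted p = 0.164). By overlap only the HLA-DM pair, 2 of 8 genes, stood apart, both lower, where 15.3% of 37915 genes with at least 10 counts did.

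In H1944 under GSK126, HLA-DPA1 and HLA-DRB1 were read in every library, while CD74 and HLA-DRA stayed near 0. CIITA had 8 counts against 1 in naive cells, and was at 0 in 4 of the 6 GSK126 libraries. HLA-DPA1 had 1, 0 and 0 counts in naive libraries and 6 to 18 counts in each of the 6 GSK126 libraries, or 1.91 to 3.96 CPM. HLA-DRB1 had 1 count in all naive libraries and 2 to 7 counts in each GSK126 library, 0.495 to 3.37 CPM. The ratio of summed counts was 60 (10.4 to 2400.0) for HLA-DPA1 and 26.0 (4.31 to 1060.0) for HLA-DRB1, wide because the naive sums are 1 count each.

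Both genes were removed by edgeR's filter on low counts. With no filter HLA-DPA1 rose by 4.95 on the log2 scale (adjusted p = 1.4e-05) and HLA-DRB1 by 3.89 (adjusted p = 0.0217), and 10.1% of 46947 genes passed. Of the 4 members with at least 10 counts in these libraries, all 4 were free of overlap, HLA-DPA1 and HLA-DRB1 higher and the HLA-DM pair lower, where 21.2% of 23130 genes were. HLA-DPA1 and HLA-DRB1 reached 10 counts only through the GSK126 libraries, with 1 naive count each. CIITA, CD74, HLA-DRA and HLA-DPB1 did not reach 10 counts, so this count says little about the members. Olfactory receptor reads were 5.4 CPM in low A, which had the lowest HLA-DPA1 of the 6 GSK126 libraries (1.91 CPM), 7.0 CPM in high A, which had the highest (3.96 CPM), and 75.1 CPM in high C (3.85 CPM). Their part in these levels was not tested.

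CD74 in H1944 had 4 counts under GSK126, all in high C, the H1944 library with most olfactory receptor reads (75.1 CPM), and 3 counts in naive cells. HLA-DRA had 3 counts under GSK126, CIITA 8 and HLA-DPB1 3. The GSK126 effect, H1944 minus A549, did not pass edgeR's test for CD74 (-3.78 ± 2.01, adjusted p = 0.282) or CIITA (-1.35 ± 1.89, adjusted p = 0.74). For HLA-DRA, at 0 in naive H1944, its SE was too large to read. Leukocyte markers summed to 12.4 to 42.4 CPM under GSK126 and 4.16 to 7.68 CPM in naive H1944. Only 2 of the 18 were tested there, and ITGAX was the 1 that rose (log2 fold change 2.95 ± 0.37, adjusted p = 5.49e-08 by edgeR). The part of leukocyte markers in these results was not tested. TGF-β1 gave 11 counts of CIITA, 10 of HLA-DPA1 and 7 of HLA-DRB1 in 6 H1944 libraries, where naive cells had 1 of each. HLA-DRA had 0 counts, which allows up to 0.401 CPM in the low and 0.419 CPM in the high gate. HLA-DPA1 against naive cells was 2.80 with no filter (adjusted p = 0.072), and it passed with the filter at 1 CPM (2.90, adjusted p = 0.0392) and in 4 fits that left out 1 library (3.13 to 4.44, adjusted p of 0.0145 to 0.0367). By overlap 2 of 4 members stood apart under TGF-β1, the HLA-DM pair, where 37.6% of 22773 genes did.

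HLA-DMB was set against CD74 and HLA-DRA within each library, as the log2 ratio of counts with 0.5 added to each. Where a partner is at 0 the ratio depends on the library's depth. The permutation tests below took low- and high-gate libraries as separate units. If the gates of a letter were sorted from the same culture, these p-values are too small. In naive A549 HLA-DMB exceeded CD74 by 4.95, 8.67 and 5.54 on the log2 scale, and HLA-DRA by 6.05, 8.67 and 8.34. Under GSK126 the ratio to CD74 was 0.08, -0.74 and -0.56 in the low gate and -2.43 and -1.91 in the high gate, and that to HLA-DRA 0.82, -0.29 and -0.16, then -0.49 and -1.34. HLA-DMB was thus the smaller count in 4 of the 5 libraries, all except low A. The mean ratio to CD74 fell by 7.50 and that to HLA-DRA by 7.98, each with an exact two-sided permutation p of 0.0357, the smallest that 3 against 5 libraries can give.

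Under TGF-β1 the A549 ratio also fell, by 5.22 to CD74 and by 5.47 to HLA-DRA (exact permutation p = 0.0357 for each), but HLA-DMB remained the larger count in all 5 libraries. In H1944 the ratio to CD74 fell by 2.19 under GSK126 and 6.46 under TGF-β1, and that to HLA-DRA by 3.25 and 7.13 (exact permutation p = 0.0238 for each, the smallest that 3 against 6 can give). All 8 tests had a Benjamini-Hochberg adjusted p of 0.0357. HLA-DMB alone lay lower in every treated library than in every naive one, in both lines under both agents. A ratio can fall in this way with its partner unmoved, so these tests do not show that CD74 or HLA-DRA moved. In A549 under TGF-β1, CD74 and HLA-DRA each overlapped naive cells. The H1944 ratios rest on HLA-DMB and on depth, since CD74 and HLA-DRA were at 0 in most of those libraries: the naive ratio to HLA-DRA was 8.24, 8.21 and 10.5, the last in naive C, the most deeply read library. With 0.1 in place of 0.5 counts added, the H1944 GSK126 ratio to CD74 no longer passed (-1.85, exact permutation p = 0.262).

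**Figure D4:**
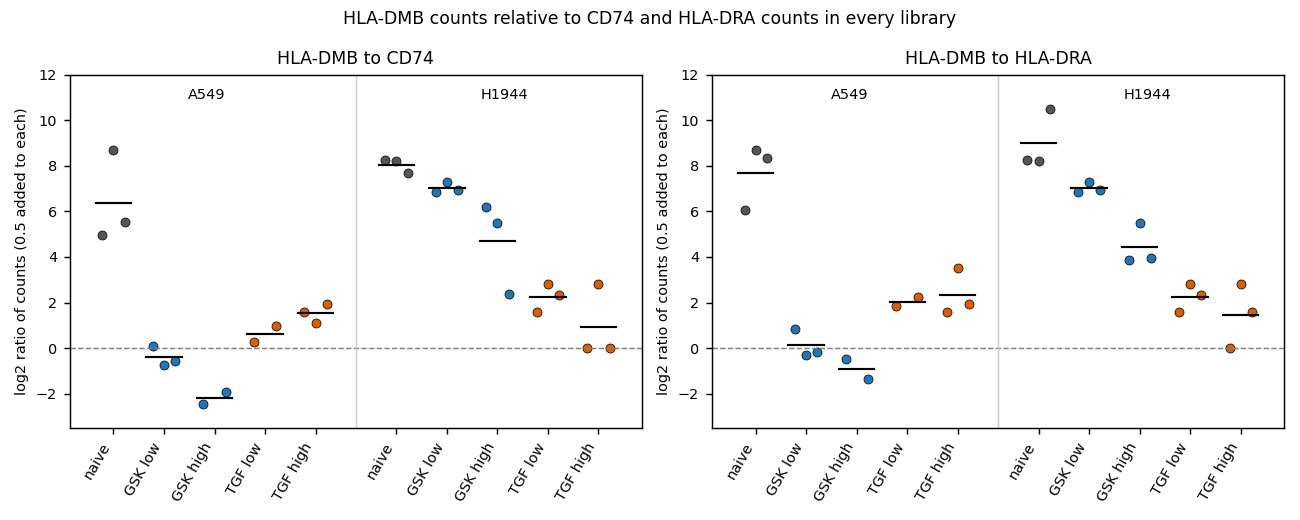
Log2 ratio of HLA-DMB counts to CD74 counts (left) and to HLA-DRA counts (right) in each library, with 0.5 added to each count, 1 point per library and a bar at the group mean. The dashed line at 0 marks equal counts. The naive A549 libraries lie at 4.95 to 8.67 and the GSK126 ones at -2.43 to 0.08 in the CD74 panel.

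Between the gates, HLA-DMB in H1944 under GSK126 was the only member to pass the test. It was lower in the high gate (7.6 to 11.1 CPM) than in the low gate (17.5 to 19.0 CPM), with no overlap, a log2 fold change of -1.09 ± 0.22 and an adjusted p of 0.00244 by edgeR. 1 of 2 tested members passed, where 6.93% of genes did. The call was lost in the fit of all 28 libraries (adjusted p = 0.302). HLA-DMA did not follow: it held 6.18 to 7.19 CPM in the low and 6.15 to 8.29 CPM in the high gate (0.10 ± 0.28, adjusted p = 0.879). HLA-DPA1 was at 3.80 to 3.96 CPM in the high and 1.91 to 3.46 CPM in the low gate. HLA-DRB1 was at 1.54 to 3.37 and 0.495 to 0.957 CPM, on 7 counts per high library and 2 to 3 per low one. Neither passed in the fit with no filter (adjusted p = 0.895 and 0.738). The share of all genes without overlap between these gates was not counted, so freedom from overlap here says little about a member.

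No other pair of gates gave a call on a member. In A549 under GSK126 HLA-DMB was 0.764 and 1.71 CPM in the high gate and 1.99 to 3.76 CPM in the low gate, a difference of -1.11 ± 0.87 (adjusted p = 0.741), and CD74 and CIITA differed by 0.73 ± 1.08 and 0.41 ± 0.81. There 0.0% of genes passed the test, and 986 had an unadjusted p below 0.05. Under TGF-β1 0.0% passed in A549, with 197 genes below 0.05 unadjusted, and 0.0587% in H1944. HLA-DMA in H1944 had 13 counts in the low and 1 count in the high TGF-β1 gate (-3.34 ± 0.93, adjusted p = 0.463).

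The 2 agents were also compared with each other, without naive cells. In A549 HLA-DMB did not differ between them beyond the spread (0.17 ± 0.55, TGF-β1 minus GSK126, adjusted p = 0.851), and its sign turned without naive A and TGF-β1 high B (-0.67, adjusted p = 0.248). HLA-DRA (-3.04 ± 0.98, adjusted p = 0.0361) and CIITA (-1.72 ± 0.59, adjusted p = 0.0495) were lower under TGF-β1, and CD74 had -2.06 ± 0.81 (adjusted p = 0.087). That is 2 of 7 tested members, both lower, where 19.3% of genes passed, 11.4% lower. Both calls were lost with the replicate block, at adjusted p = 0.103 for CIITA and 0.116 for HLA-DRA, and at least 1 of them in 8 of the 10 fits that left out 1 treated library, every one except those without GSK126 high A and TGF-β1 high B. DESeq2 and RLE size factors kept HLA-DRA and lost CIITA (adjusted p = 0.0539 and 0.0927). Without naive A and TGF-β1 high B, 5 members were lower under TGF-β1: CIITA (-2.47), CD74 (-3.32), HLA-DRA (-3.32), HLA-DPA1 (-2.18) and HLA-DMA (-1.72), where 32.1% of genes passed.

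In H1944 HLA-DMA (-3.46 ± 0.39, adjusted p = 2.27e-09) and HLA-DMB (-3.98 ± 0.31, adjusted p = 4.86e-13) were lower under TGF-β1 than under GSK126, 2 of 2 tested, where 63.8% of genes passed. HLA-DPA1 had 10 counts under TGF-β1 and 67 under GSK126, 4.86-fold lower (2.49 to 10.6). It was removed by the filter, and was lower with no filter (-2.15, adjusted p = 0.00242) and in the other fits that tested it (-2.94 to -1.75, adjusted p up to 0.0386).

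Naive cells of the 2 lines differed in the balance of the pathway. HLA-DMA was higher in H1944 by 3.28 ± 0.38 on the log2 scale (adjusted p = 2.75e-08) and HLA-DMB by 1.07 ± 0.32 (adjusted p = 0.00746), while CIITA was lower by a fitted -4.18 ± 1.46 (adjusted p = 0.0204). That is 1 count in H1944, 0.0554 CPM (exact 95% counting interval 0.0014 to 0.308), against 38 counts in A549, 1.87 CPM (1.32 to 2.56). These were 3 of 6 tested members, where 46.8% of 17918 genes passed. The CIITA call was lost without A549 naive A, the background-rich library (adjusted p = 0.0724), without H1944 naive A (0.0551) and without H1944 naive C (0.156). The HLA-DMB call was lost without A549 naive C (0.0538) and in DESeq2 (0.0887).

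The response of the HLA-DM pair differed between the lines when the difference itself was tested. The fall of HLA-DMA under GSK126 was deeper in H1944 by 1.68 ± 0.52 on the log2 scale (H1944 minus A549 -1.68, adjusted p = 0.0353), and that of HLA-DMB had the other sign, 1.5 ± 0.54 (adjusted p = 0.0749). 1 of 6 tested members passed, where 9.91% of genes did. Which of the pair passed depended on the fit: HLA-DMA did not with the replicate block (adjusted p = 0.0817) or in 10 of 17 fits that left out 1 library (up to 0.457, without A549 GSK126 high B), and without A549 naive A and TGF-β1 high B both did, HLA-DMB at 1.48 (adjusted p = 0.00285). Under TGF-β1 both fell further in H1944, HLA-DMA by 3.76 ± 0.69 (-3.76, adjusted p = 0.000132) and HLA-DMB by 2.77 ± 0.68 (-2.77, adjusted p = 0.00309), 2 of 6 tested, where 20.0% of genes passed. With the low gate alone neither passed (adjusted p = 0.0778 and 0.111), and HLA-DMB was -1.88 without A549 naive A and TGF-β1 high B (adjusted p = 0.00694). Under TGF-β1 HLA-DMA ended at means of 0.774 CPM in A549 and 0.929 CPM in H1944, from naive means of 3.57 and 33.9 CPM. At these counts a deeper fall in A549 could hardly be read, so the difference for HLA-DMA is largely one of starting level. In A549 the HLA-DMB left under TGF-β1 followed the order of olfactory receptor reads. These reads ran up to 323.4 CPM in A549 TGF-β1 libraries and up to 65.1 CPM in H1944 ones. Their part in the TGF-β1 differences between the lines was not tested.

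Patterns over the 10 groups were compared by Pearson's r of the group means of log2(CPM + 1), as a description over 10 points that share depth and background. HLA-DMB was most like C5 (r = 0.987), a complement component, then GLCE (0.978), ANG (0.969), FRMD4B (0.968) and SLC17A3 (0.968), among 14559 genes of at least 2 CPM. C5 stood at 45.5 CPM in naive A549, 3.90 to 8.86 CPM under the treatments there, 79.9 CPM in naive H1944, 24.5 and 18.2 CPM under GSK126 and 3.73 and 4.15 CPM under TGF-β1. The r of HLA-DMB was 0.883 with HLA-DMA, -0.371 with CD74, -0.331 with HLA-DRA and -0.472 with CIITA.

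Among the same genes of at least 2 CPM, CD74 was most like POSTN (0.980), which encodes the matrix protein periostin, FTSJ3 (0.968), CIITA (0.965), PDCD11 (0.963) and XPO6 (0.960). HLA-DRA was most like FTSJ3 (0.973), POSTN (0.962), FAR2 (0.962), PDCD11 (0.952) and AP1M1 (0.951), and CIITA like DRAP1 (0.966), POSTN (0.965), ZNF385D (0.958), HAS3 (0.953) and FTSJ1 (0.952). POSTN stood at 1.75 CPM in naive A549 and 29.8 and 35.9 CPM in the low and high gate under GSK126, and at most 0.83 CPM in H1944. HLA-DPB1, below that minimum, had an r of 0.983 with CIITA and 0.962 with CD74, and HLA-DRA one of 0.973 with CD74.

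A list of 7 other class II chain genes gave few reads. Only HLA-DOA was tested in A549, at 1.14 ± 1.30 under GSK126 (adjusted p = 0.711), and none in H1944. HLA-DQA1, HLA-DQA2 and HLA-DQB2 had 0 counts of 6126531 in the A549 GSK126 high gate, where CD74 had 37 counts, HLA-DRA 19 and CIITA 53.

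In A549 3.57% of all genes rose and 3.2% fell under GSK126, and 7.67% and 11.4% under TGF-β1. In H1944 these shares were 21.5% and 18.7%, then 32.1% and 31.6%. They stand beside the counts of this list and those below, and counts near them say little about a list. Of 10 factors that hold CIITA on class II promoters or act with it, 0 passed the test under GSK126 in either line. Under TGF-β1 1 fell in A549, NFYB (-0.73 ± 0.22, adjusted p = 0.0258), with a list median of -0.02 against 0.05 for all genes. In H1944 under TGF-β1 3 rose and 3 fell: HDAC2 (0.76 ± 0.10), a histone deacetylase, and CREB1 (0.74 ± 0.13) were higher and RFX5 (-0.51 ± 0.10), the DNA-binding subunit of RFX, lower, with a list median of 0 against -0.01.

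Of the interferon gamma pathway, IRF1, a transcription factor induced by interferon gamma, rose under GSK126 in both lines (0.98 ± 0.19 in A549, adjusted p = 0.00221, and 1.17 ± 0.18 in H1944, adjusted p = 2.83e-06). The feedback inhibitor SOCS3 rose in A549 (1.33 ± 0.30, adjusted p = 0.00827) and fell in H1944 (-0.83 ± 0.13, adjusted p = 1.86e-06), a difference between the lines of -2.20 ± 0.31 (adjusted p = 8.58e-06). Over the list, 2 of 9 tested genes rose and 0 fell in A549 under GSK126, with a median of -0.13 against -0.16 for all genes. In H1944 3 rose, the kinase JAK1 (0.58 ± 0.09) among them, and 3 fell of 8, with a median of 0.04 against 0. Under TGF-β1 only JAK2 passed in A549 (-0.84 ± 0.20, adjusted p = 0.00453), and in H1944 3 rose and 4 fell, among them SOCS3 (-2.26 ± 0.15), JAK1 (1.19 ± 0.09) and the factor IRF2 (-1.18 ± 0.14). Of all H1944 genes tested, 21.5% rose and 18.7% fell under GSK126, and 32.1% and 31.6% under TGF-β1.

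Of the enzymes and sorting factors that prepare endosomal peptides, CTSS, the protease that trims CD74, fell in A549 under GSK126 (-1.13 ± 0.25, adjusted p = 0.00942), the only 1 of 12 tested. Under TGF-β1 in A549 4 fell and 1 rose, with CTSC (-1.81 ± 0.24) and CTSZ (-1.0 ± 0.21) lower and LGMN (0.94 ± 0.21) higher. In H1944 3 rose and 1 fell under GSK126, CTSB (0.70 ± 0.08) and CTSH (1.01 ± 0.25) higher and CTSD (-0.49 ± 0.10) lower. Under TGF-β1 there 2 rose and 2 fell, CTSD (-2.33 ± 0.11) and CTSC (-1.01 ± 0.11) lower and CTSB (1.46 ± 0.08) higher. The list medians were -0.05 and -0.14 in A549 under GSK126 and TGF-β1, and -0.07 and 0.06 in H1944. The medians of all genes, and the shares of them that rose or fell, are given above.

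CD44, which pairs with CD74 as a receptor for the cytokine MIF, rose in A549 under GSK126 (1.13 ± 0.23, adjusted p = 0.00403) and TGF-β1 (0.87 ± 0.23, adjusted p = 0.00969) and fell in H1944 under GSK126 (-0.78 ± 0.07, adjusted p = 7.48e-11). MIF and its relative DDT fell under TGF-β1 in A549 (-0.83 ± 0.24 and -1.30 ± 0.31) and in H1944 (-0.63 ± 0.17 and -1.19 ± 0.22). Of 7 genes listed as CD74 partners, 1 rose and 0 fell of 6 tested in A549 under GSK126, 1 rose and 2 fell under TGF-β1, and in H1944 0 rose and 1 fell, then 0 and 2, of 5. Among all H1944 genes 18.7% fell under GSK126 and 31.6% under TGF-β1.

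Of 7 genes of the class I pathway or near HLA-DMB on chromosome 6, 0 passed in A549 under GSK126. In H1944 3 rose, the immunoproteasome subunit PSMB8 (0.60 ± 0.11), the peptide transporter TAP1 (0.57 ± 0.12) and TAPBP (0.40 ± 0.09), and 1 fell, BRD2 (-0.21 ± 0.07). Under TGF-β1 PSMB8 (-1.54 ± 0.24), PSMB9 (-1.82 ± 0.49) and TAP1 (-0.85 ± 0.23) fell in A549. In H1944 PSMB9 (-1.72 ± 0.47) fell with BRD2 and PSMB8, and TAP1 (0.46 ± 0.13) rose with TAPBP. Among all genes 11.4% fell in A549 under TGF-β1, and 32.1% rose and 31.6% fell in H1944. Under GSK126 21.5% rose and 18.7% fell in H1944.

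Of 9 genes for co-stimulatory and co-inhibitory ligands, 2 of 8 tested rose and 0 fell in A549 under TGF-β1, where 7.67% of all genes rose. The list median was 1.10 against 0.05. CD274, which encodes PD-L1, rose in A549 (3.02 ± 0.41, adjusted p = 2.02e-05) and H1944 (5.28 ± 0.31, adjusted p = 1.62e-16), and PDCD1LG2 rose in A549 (2.77 ± 0.62, adjusted p = 0.00314). In H1944 4 of 6 tested genes of this list rose, CD276 (1.06 ± 0.09) among them, and ICAM1 fell (-1.64 ± 0.18), where 32.1% of all genes rose and 31.6% fell. Under GSK126 0 of 8 passed in A549 and 4 of 6 rose in H1944, among them CD276 (0.77 ± 0.09), ICAM1 (0.80 ± 0.15), an adhesion molecule, and TNFSF9 (0.74 ± 0.18). Among all H1944 genes 21.5% rose under GSK126.

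Of 6 genes that write or erase H3K27 methylation 0 passed under GSK126 in A549, and in H1944 2 rose and 2 fell, with EZH2 itself higher (0.27 ± 0.09, adjusted p = 0.0209) and EZH1 (-0.80 ± 0.13) and the demethylase KDM6A (-0.52 ± 0.10) lower. Among all H1944 genes 21.5% rose and 18.7% fell under GSK126. Under TGF-β1 1 of 6 rose and 1 fell in A549, where 7.67% of all genes rose and 11.4% fell. In H1944 1 rose and 2 fell, where 32.1% rose and 31.6% fell. The list medians were -0.31 against 0.05 for all genes in A549 and -0.2 against -0.01 in H1944. The gene that rose was the demethylase KDM6B in both A549 (3.08 ± 0.34) and H1944 (2.24 ± 0.13). Leukocyte markers in A549 summed to 27.3 to 36.8 CPM in the low and 11.4 to 16 CPM in the high GSK126 gate, and 0 of 10 tested passed. CD74 stood at 4.07 ± 0.963 CPM (SD, n = 3) in the low and 5.90 ± 1.33 CPM (SD, n = 2) in the high gate. Of 10 alveolar type 2 markers, a lung cell type known to make class II, 0 of 3 tested passed in A549 and 2 of 2 rose in H1944 under GSK126, LAMP3 (1.60 ± 0.46) and ABCA3 (1.34 ± 0.27). Their part in the results on the 8 genes was not tested.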

How the data were processed

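RNA of A549 and H1944 cells was sequenced as 28 libraries, prepared from small amounts with a kit for stranded total RNA. The authors deposited one table of raw read counts per Ensembl gene, and per the submitters' processing notes bcl2fastq 2.20.0, STAR 2.6.0c, HTSeq 0.12.3 and GRCh38 were used. Trimming, duplicate removal and the strand setting of the counting are not given in the sources used here. Symbols, spans and exon lengths came from GENCODE 29. The 4 reporter entries were kept out of the 60483 genes and of the counts of genes without overlap. From counts of genes tested and called only the mVenus entry was removed.

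Counts were divided by the library total for CPM, without a pseudocount. Counting intervals are exact Poisson or conditional binomial at 95%, and the floor for 0 counts is 3 counts per group. Tests used edgeR 4.0.16 (R 4.3.3, TMM, filterByExpr, quasi-likelihood F test), 1 fit per line with its 5 groups and 1 fit of all 28 libraries for comparisons of lines, with Benjamini-Hochberg adjustment over all genes at 0.05. A treatment is the mean of its gates. Both treatments of a line share its naive libraries. The fits were tested on simulated counts. Alternatives were RLE size factors, other filters, DESeq2 1.42.0, limma-voom (limma 3.58.1), a replicate block, other sets of libraries, each gate alone and each library left out. Ratios were tested by exact two-sided permutation over libraries, with the gates taken as separate units.

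All 8 genes are described whatever their values. From each gene list at most 3 called genes of smallest adjusted p are named per comparison with naive cells, as are the 5 genes most like a member in pattern and genes that overlap one. PSMB8 and TAPBP in H1944 under TGF-β1, and the other class II chains, were added after their values were seen. The members and lists were chosen with earlier results of these data known.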

Additional observations from a re-analysis of the deposited data

Results flagged for a closer look

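The response of HLA-DM differed between the lines by a test of the difference itself, H1944 minus A549, in the edgeR fit of 28 libraries. For HLA-DMA the difference was -1.68 (log2) under GSK126 and -3.76 under TGF-β1. For HLA-DMB it was -2.77 under TGF-β1. Every TGF-β1 library of both lines lay below every naive library of its line for both genes, so under TGF-β1 these are differences in size. For HLA-DMA both lines ended near 0 under TGF-β1, at means of 0.774 CPM in A549 and 0.929 CPM in H1944. Naive means were 3.57 and 33.9 CPM, so that difference is largely one of starting level. The part of olfactory receptor reads, higher in A549, in the TGF-β1 differences was not tested. For HLA-DMA under GSK126 the groups overlapped in A549 and not in H1944.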

How the results depend on the processing

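The fall of HLA-DMB against naive cells passed the test in all 38 alternatives of each line, with log2 values of -4.44 to -3.33 under GSK126 and -4.62 to -3.44 under TGF-β1 in A549, and -2.89 to -1.80 and -6.98 to -6.08 in H1944. Over all values of single members, 945 of 1089 kept their sign and their side of the threshold, 42 passed it and 52 lost it. Another 50 changed sign while called in neither fit, and 0 called values changed sign.

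The number of members called in A549 under GSK126 was 1, and it was 4 with no filter, 3 with a filter at 1 CPM, 3 in DESeq2, 5 in limma-voom, 5 without naive A and TGF-β1 high B, 4 with only the groups compared, 2 with all 28 libraries, and 1 to 2 with 1 library left out. Under TGF-β1 it was 2, and 1 with the replicate block, with only the groups compared and in either gate alone, and 1 to 2 with 1 library left out. Between the agents in A549 it was 2, and 1 with RLE size factors and DESeq2, 6 in limma-voom, 0 with the replicate block, 5 without naive A and TGF-β1 high B, and 0 to 4 with 1 library left out. In H1944 under GSK126 it was 2, and 4 with no filter or the filter at 1 CPM, and between its gates 1, and 0 with all 28 libraries. For the difference of lines under GSK126 it was 1, and 4 in limma-voom, 0 with the replicate block and in the high gate alone, 2 without naive A and TGF-β1 high B and with only the groups compared, and 0 to 1 with 1 library left out. Under TGF-β1 it was 2, and 0 in the low gate alone. The ratio of HLA-DMB to CD74 in H1944 under GSK126 was -1.85 with 0.1 added (exact permutation p = 0.262). The cause of these changes was not tested.

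Between the gates of an agent, libraries of the same letter deviated together weakly in most pairs. Deviations were taken from group means, so a positive same-letter value pulls the other-letter values down. In H1944 under GSK126 same-letter correlations were 0.119, 0.133 and 0.089, and the best other-letter ones -0.043, -0.06 and -0.037. The H1944 TGF-β1 gates gave 0.087, 0.1 and -0.044, against 0.068, -0.032 and 0.047 for the best other letter. In A549 the gates gave 0.162 and 0.08 under GSK126, against -0.074 and 0.074. Under TGF-β1 they gave 0.092 and 0.395, against -0.092 and -0.395. Over all pairs of A549 groups, those with naive cells and across agents included, same-letter values ran from -0.567 to 0.395. With the replicate block HLA-DMB between the H1944 GSK126 gates was -1.08 (adjusted p = 0.00282 by edgeR).

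Counts of all genes called moved past 1.5 times in places. A549 GSK126 gave 1344, and 852 in the low gate, 3396 in limma-voom and 627 without GSK126 high B. A549 TGF-β1 gave 3775, and 7921 in limma-voom and 2383 in the low gate. The agents differed in 3838 genes in A549, and in 6054 in limma-voom and 2100 without GSK126 high B. H1944 GSK126 gave 5475, and 3491 with all 28 libraries. Its gates gave 944, and 53 with all 28 libraries and 308 without GSK126 low B. The gates gave 0 in A549, and 18 (GSK126, groups alone), 1393 (TGF-β1, limma-voom) and 6 (without TGF-β1 high B), and in H1944 under TGF-β1 8, and 0 to 26. Differences of lines gave 1775 and 3588, and 1162 and 2458 in the low gate and 2883 and 6126 in limma-voom. HLA-DRA, HLA-DRB1 and HLA-DPB1, with 60, 73 and 66 counts in all libraries, have wide counting intervals, and depth limits them most in H1944.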

Other observations

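The 2 chains of HLA-DM were not in one proportion. The log2 ratio of HLA-DMB to HLA-DMA counts, with 0.5 added to each, was 2.97, 3.05 and 2.99 in the naive A549 libraries and 1.08, 0.70 and 0.67 in the naive H1944 libraries. It lay between -0.74 and 1.28 in the 5 A549 libraries under GSK126, and between 0.34 and 2.40 in the 5 under TGF-β1, all below the naive A549 values. In H1944 under GSK126 it was 1.44, 1.60 and 1.27 in the low gate, above the naive libraries, and 0.36, -0.12 and 0.60 in the high gate, below them. These ratios were not tested.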
